A study of Mus musculus with 5 samples.

Results

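The comparison described here sets mouse embryonic fibroblasts treated with mastoparan during reprogramming against untreated cells of the same day. Its members are all genes of 2 libraries, chosen by the libraries' titles: the mastoparan library and the control library of day 8, out of 5 libraries in the series. Of 29267 genes in the deposited tables, 11145 had a mean of at least 5 CPM over these 2 libraries and are called measured below. CPM is the number of counts for each 1000000 reads of a library after TMM scaling, a scaling that assumes that most genes keep their share.

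All 5 libraries came from embryonic fibroblasts of the ICR strain that were being reprogrammed, and RNA was sequenced from whole cultures. The day-8 libraries are an untreated control, cells given mastoparan and cells given paraquat, a redox-cycling herbicide. The day-4 libraries come from cells expressing CypD (cyclophilin D, encoded by Ppif) or Flag as its control. The series title names the mitoflash as the subject, a short flash of superoxide and a change of pH in a single mitochondrion. The introduced reprogramming factors, the doses and the timing of treatment are not named in the sources used here. A genotype label names CypD expression for the 3 day-8 libraries as well, while the design text does not. Ppif had 90 counts in the day-8 control, 95 with mastoparan and 79 with paraquat, against 2629 in the day-4 CypD library and 112 in the Flag library. The day-8 groups are therefore described by their treatment alone.

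Mastoparan is a short amphipathic peptide from wasp venom. It activates heterotrimeric G proteins, mainly those of the Gi and Go classes, by mimicking the part of a receptor that touches the G protein, and it can also disturb membranes and open the mitochondrial permeability transition pore. Gi and Go proteins are known to hold down adenylyl cyclases, the enzymes that make cyclic AMP, while their beta and gamma subunits act on phospholipase C and MAP kinase signalling.

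With 1 library in each group, differences have no replicate check and none is tested. A fold is the ratio of scaled counts, with a 95% counting interval. A log2 ratio adds 0.5 CPM to both sides and so understates differences of low genes. The intervals cover counting error only and no error between replicates. They treat reads as independent molecules, which amplified reads are not. They are also not adjusted for picking out the most extreme of many genes. The control library held 3016439 expected counts and the mastoparan library 2834186, with 16422 and 16167 genes at 1 count or more. A floor of 3 counts equals 0.973 CPM in the control and 1.05 CPM in the mastoparan library. In RNA from a whole culture, fewer cells of a type and less RNA per cell cannot be told apart.

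The 2 libraries were close. The median log2 ratio of the measured genes was 0.01, with 5698 of them (51.1%) above 0. With mastoparan 239 genes were 1.5-fold or more higher, 2.14% of those measured, and 280 were 1.5-fold or more lower, or 2.51%. The counting interval lay above 1 for 498 genes (4.47%) and below 1 for 377 (3.38%), which leaves 92.1% with an interval that holds 1. These shares depend on level. Between 5 and 10 CPM, 11.2% of 1262 genes were at least 1.5-fold higher and 12.8% at least 1.5-fold lower, whereas at 20 CPM or more only 23 and 26 of 7969 were. At 100 CPM or more the interval lay above 1 for 236 of 2101 genes (11.2%) and below 1 for 86 (4.09%). At 500 CPM or more it lay above 1 for 84 of 234 genes (35.9%) and below 1 for 15 (6.41%). Small differences are resolved at such levels, and why more intervals lay above 1 than below was not tested. The median log2 ratio rose with level as well, from -0.03 between 5 and 10 CPM to 0.05 at 500 CPM or more. Over all genes at 100 CPM or more it was 0.02.

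**Figure D1:**
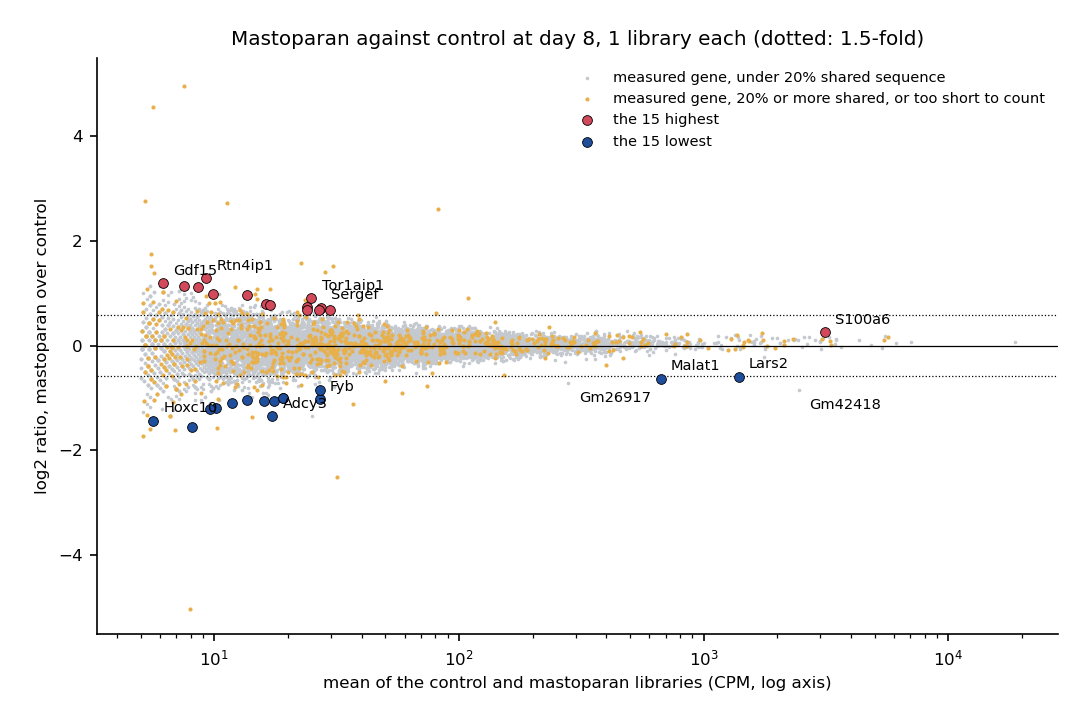
The log2 ratio of mastoparan over control (vertical axis) is plotted against the mean level of the 2 libraries in CPM (horizontal log axis) for the 11145 measured genes. The spread narrows as the level rises, the widest ratios belong mostly to genes that share sequence with another gene (orange), and Lars2, Malat1, Gm26917 and Gm42418 stand below other genes of their level.

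Several of the widest ratios belonged to pairs of near-identical genes, where the counting program had to divide reads between the copies. Lsm7, a subunit of the ring that binds messenger RNA for decay and of the spliceosomal U6 particle, had 26 counts in the mastoparan library against 168 in the control, a log2 ratio of -2.51. Gm10146, annotated elsewhere on the same chromosome, had 405 against 233. Summed, the pair had 431 against 401 counts and a log2 ratio of 0.22. The first 60 coding bases of Lsm7 (mm10 chromosome 10, minus strand, 80854655 to 80855186 with the intron between) are printed to show the shared part, from which reads cannot be assigned to either gene. Of the windows of Lsm7, 62.1% are shared, and reads from its other windows can be assigned. The gene Gm10146 (chromosome 10, plus strand, 78393320 to 78393379) reads the same, and all 309 aligned bases of the pair are identical.
Lsm7: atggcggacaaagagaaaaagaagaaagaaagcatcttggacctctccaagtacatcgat
Gm10146: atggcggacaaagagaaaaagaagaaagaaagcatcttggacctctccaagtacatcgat
With no base that differs, no part is capitalised. Btg3, an antiproliferative gene, had 57 counts against 8, while its sum with Gm7334 gave a log2 ratio of 0.18. The iron-linked autophagy receptor gene Ncoa4 had 66 against 157 counts, and 0.05 when summed with Gm6768. Atp5g2, an ATP synthase gene, had 1221 against 1557, and 0.11 when summed with Gm10175. The sum did not bring every such pair to 0. Sprr2a1, a cornified envelope gene, had 49 counts in the control and 0 in the mastoparan, paraquat and both day-4 libraries. Its log2 ratio was -3.27 when summed with Sprr2a3. Of its windows 96.3% are shared, and other Sprr2a copies were not summed. This sum therefore cannot show whether its reads were assigned to another copy. For 828 measured genes, at least 20% of the 49-base windows of their transcripts occur in another gene too. Of these 10.3% were past 1.5-fold, against 4.16% of the 10301 genes with less shared sequence. The single genes named below come from the latter unless stated.

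Among genes with little shared sequence, the 15 placed highest and the 15 placed lowest are those whose interval bound nearest 1 lies farthest out. Apart from S100a6, the 15 highest were 1.61-fold to 2.57-fold higher and had fewer than 100 control counts. Rtn4ip1, a mitochondrial oxidoreductase linked to coenzyme Q synthesis (mm10 chromosome 10, 43901807 to 43957201, plus strand), had 16 counts in the day-8 control and 38 with mastoparan. It had 27 with paraquat, 28 in the Flag library and 41 in the CypD library. As CPM the control is the low library at 5.19, and the other 4 lie close together, from the Flag library as the lowest of them to mastoparan at 13.3. Its fold was 2.57 (1.40 to 4.94).

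Tor1aip1, the inner nuclear membrane protein that activates torsin, had 93 counts with mastoparan and 53 in the control, 32.6 against 17.2 CPM (1.90-fold, 1.34 to 2.71). The paraquat, Flag and CypD libraries lay between them at 23.0, 27.6 and 30.1 CPM. Braveheart (Bvht), a long noncoding RNA known from cardiac commitment, had 52 against 28 counts (2.01-fold, 1.25 to 3.30), and again the control at 9.08 CPM was below all 4 other libraries, which held 17.0 to 20.8 CPM. Naa30, the catalytic subunit of an N-terminal acetyltransferase, had 104 against 70 counts, and Sergef, a regulator of secretion, 97 against 63. The Notch coactivator gene Maml2 had 86 against 55 counts (1.69-fold, 1.19 to 2.42). Its levels of 30.2 CPM with mastoparan and 27.7 with paraquat were above 17.8 in the control, 18.5 in the Flag and 17.4 CPM in the CypD library.

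Gdf15, a stress-induced cytokine gene (mm10 chromosome 8, 70629393 to 70632456, minus strand), was low everywhere. It had 25 counts with mastoparan, 11 in the control, 7 with paraquat, 23 in the Flag library and 24 in the CypD library. As CPM these are 8.77, 3.57, 3.03, 9.08 and 6.95, so the mastoparan level lay within the range of the day-4 libraries. Its fold over control was 2.46 (1.17 to 5.54). Also 3 zinc finger genes were in the group, Zfp84 with 34 against 16 counts, Zscan25 with 38 against 20 and Zfp949 with 94 against 63. The one abundant member was S100a6, the calcium-binding protein calcyclin, with 3401 CPM against 2852 (1.19-fold, 1.16 to 1.23). Paraquat held 4689 CPM of it and the day-4 libraries 1603 and 1728.

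**Figure D2:**
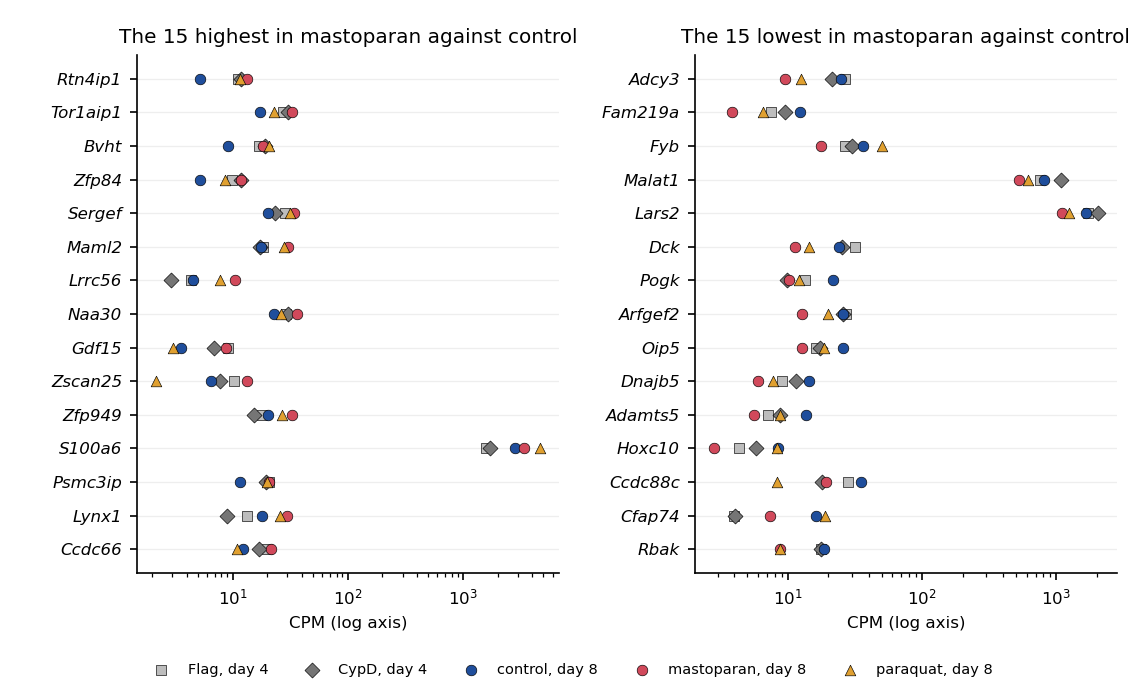
Levels in CPM (log axis) of the 15 highest (left) and 15 lowest (right) genes are shown in all 5 libraries, 1 symbol per library. The mastoparan library is the highest of the 5 for 11 of the left genes and the lowest of the 5 for 11 of the right genes, while the control is the lowest of the 5 for 7 on the left and the highest for 8 on the right.

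The position of the control in that plot matters for reading it, since the genes were picked by the ratio of these 2 libraries. For 5 of the 15 highest genes mastoparan was the highest and the control the lowest of the 5 libraries, and for 5 of the 15 lowest genes the reverse held. Of the highest genes 2 had neither library at its outer end, and of the lowest 1.

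The 15 lowest genes were 1.51 to 3.19 times lower with mastoparan, and 11 of them had fewer than 100 control counts. Adcy3, a membrane adenylyl cyclase (mm10 chromosome 12, 4133103 to 4213525, plus strand), headed them. It had 27 counts with mastoparan and 77 in the control, and 29, 67 and 74 in the paraquat, Flag and CypD libraries. As CPM these are 9.47, 25.0, 12.6, 26.4 and 21.4, so both treated libraries lay below the 3 others. The gene was 2.64 times lower with mastoparan than in the control (1.68 to 4.25), and it shares 18.7% of its windows with other genes, just under the limit. Ccdc88c encodes Daple, a WNT-linked protein that binds and activates Gi alpha subunits without a receptor. It had 55 counts with mastoparan against 108 (1.81 times lower, 1.30 to 2.56), and paraquat had 19.

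Other genes among the 15 lowest serve varied functions. Dck, the deoxycytidine kinase of the nucleoside salvage pathway, had 32 against 74 counts (2.14 times lower, 1.39 to 3.34). Its 11.2 CPM with mastoparan and 14.3 with paraquat were below 24.0 in the control, 31.6 in the Flag and 25.2 CPM in the CypD library. Oip5, which helps load the centromeric histone, had 36 against 79 counts. Arfgef2, an exchange factor of membrane traffic, had 36 against 79 as well, and Dnajb5, a heat shock cochaperone, 17 against 44. The T-cell adaptor gene Fyb had 50 against 112 counts, while paraquat held 116. The aggrecan-cleaving protease gene Adamts5 had 16 against 42, and the posterior patterning gene Hoxc10 8 against 26.

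A set of very abundant transcripts was lower with mastoparan, and these are the differences the depth resolves best. Gm42418, an annotated long intergenic RNA (mm10 chromosome 17, 39846958 to 39848788, plus strand), had 4956 counts against 9699 in the control, 1739 against 3145 CPM (1.81 times lower, 1.75 to 1.87). Its neighbour Gm26917 (39843013 to 39846341, same strand) had 604 against 1073 counts, a log2 ratio of -0.71. Paraquat lay between the 2 for both, at 2473 and 296 CPM. The day-4 libraries held 2018 and 2190 CPM of Gm42418, so the control stands highest for it, but 542 and 547 CPM of Gm26917, above the control at 348.0.

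Malat1, a nuclear long noncoding RNA (mm10 chromosome 19, 5795690 to 5802672, minus strand), had 1490 against 2498 counts (1.55 times lower, 1.45 to 1.65). Lars2, the mitochondrial leucyl-tRNA synthetase (mm10 chromosome 9, 123366927 to 123462666, plus strand), had 3161 against 5155 (1.51 times lower, 1.44 to 1.58). Both were lowest with mastoparan, at 523 and 1109 CPM, and next lowest with paraquat, at 618 and 1235 CPM. The control held 810 and 1672 CPM of them, the Flag library 758 and 1707, and the CypD library 1085 and 2043. By deposited TPM Malat1 had 189 against 230, a log2 ratio of -0.28, which is not past 1.5-fold. Apart from these 4, on scaled counts, no measured gene with little shared sequence at 50 CPM or more was past 1.5-fold in either direction.

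The ratio also moved with transcript length. Measured genes were put into 10 bins of length. In the bin of the shortest, up to 1032 bases, 64.8% of genes lay above 0 with a median log2 ratio of 0.07. In the bin of the longest, from 5424 bases, 41.6% did, with a median of -0.04. The median length over all measured genes was 2482 bases. Whether RNA quality or library preparation differed between the cultures was not tested, and the length trend stands beside every gene group of short or long transcripts below. The rise of the median with level stands beside abundant groups, such as respiratory complexes II to V and the proteasome, with member medians of 257 and 201 CPM.

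**Figure D3:**
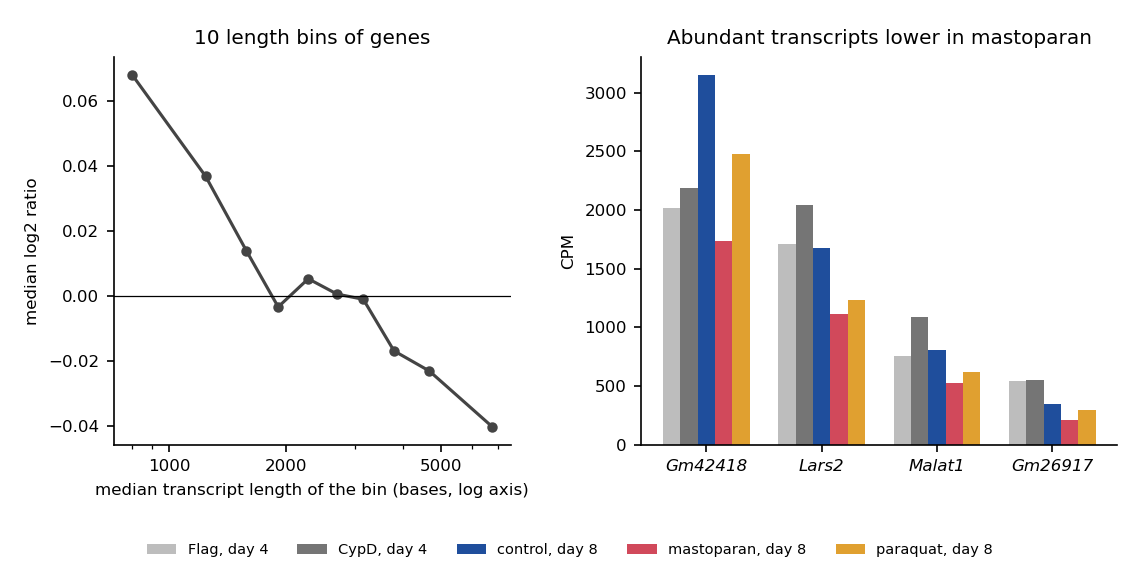
The left plot gives the median log2 ratio of mastoparan over control for 10 bins of the measured genes ordered by transcript length (bases, log axis), which runs from 0.07 in the shortest to -0.04 in the longest. The right bars give the CPM of Gm42418, Lars2, Malat1 and Gm26917 in the 5 libraries, where mastoparan is the lowest bar for each.

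Genes of the machinery that mastoparan acts on were mostly near the control, as were measured genes in general. Of all measured genes 92.1% had an interval that holds 1, and 2.14% and 2.51% were at least 1.5-fold higher and lower. Of 10 measured G alpha genes 3 lay above 0, the median log2 ratio was -0.05, and none was past 1.5-fold. The stimulatory subunit gene Gnas had 3281 counts against 3641 (-0.04), and the inhibitory ones Gnai2 and Gnai3 had 1678 against 1898 (-0.06) and 295 against 299 (0.09). Gna13 had 135 against 187 counts (1.28 times lower, 1.02 to 1.61) and was the only G alpha gene with an interval off 1. Of 9 measured beta and gamma genes 5 lay above 0 (median 0.03), with Gng12 at 0.19 and Gnb5 at -0.41, and of 13 modulators such as RGS genes 5 did (median -0.12). No interval in either list excluded 1.

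The 3 measured adenylyl cyclases were all lower, Adcy3 at -1.35, Adcy1 at -0.34 (40 against 55 counts) and Adcy6 at -0.17 (185 against 226), but the intervals of the last 2 hold 1. Below the minimum level, Adcy7 ran the other way with 12 counts against 3. Summed CPM of the 10 cyclase genes was 96.5 against 122 in the control and 83.2 with paraquat. Phosphodiesterases, which break cyclic AMP down, had a median of -0.01 over 9 measured genes. Among 21 genes for cyclic AMP-dependent kinase subunits, anchors and CREB factors the median was -0.04, and the coactivator gene Ep300 was the single one with an interval off 1 (80 against 127 counts, 1.47 times lower, 1.10 to 1.97).

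Known cyclic AMP-responsive genes moved both ways. Of 13 measured, 6 lay above 0 and the median was -0.09. Fosb, Crem and Per1 had log2 ratios of -0.45, -0.66 and -0.35, and Pde4d, Bdnf, Cited2 and Sik1 had 0.32, 0.25, 0.23 and 0.20. Dusp1, a phosphatase that switches MAP kinases off, was the one with an interval off 1. It had 127 counts with mastoparan, 182 in the control, 79 with paraquat, 309 in the Flag library and 394 in the CypD library. As CPM these are 44.6, 59.0, 34.2, 122 and 114, so both treated libraries lay below the control and all 3 day-8 libraries below day 4. Its promoter is printed because it carries the full cyclic AMP response element, in capitals. The 120 bases lie at chr17:26508552-26508671 (minus strand, RefSeq, GRCm38.p6), and the first base of the element is 143 bases before the start.
Dusp1: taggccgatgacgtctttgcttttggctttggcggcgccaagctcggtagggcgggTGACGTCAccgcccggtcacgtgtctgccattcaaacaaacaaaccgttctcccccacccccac
The element TGACGTCA reads the same on both strands. It was found in 1 of 21 promoters of 11 of the 13 measured cyclic AMP-responsive genes, and in 588 of the 32851 promoters searched (1.79%). The promoters of 1 chromosome were left out of this search. A match is a description of the sequence and not a site shown to be bound.

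Immediate-early transcription factors, which growth factor and MAP kinase signalling switches on within minutes, leaned lower. Of 22 measured, 6 lay above 0 (27.3%, against 51.1% of all measured genes) with a median of -0.09. None was past 1.5-fold. The interval lay below 1 for 4 of them (18.2%, against 3.38% of all) and above 1 for none. Egr1 had 633 counts against 831 (1.21 times lower, 1.09 to 1.35), Etv4 112 against 169, Etv5 423 against 539, and the small Maf gene Mafk 97 against 149. The AP-1 genes Fos and Jun had 326 against 408 and 200 against 248 counts, and Maff ran the other way with 170 against 159. Paraquat held 217 CPM of Egr1 against 222 with mastoparan and 270 in the control, while the day-4 libraries held 491 and 429.

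MAP kinase feedback genes, which dampen the same pathway, had a median of -0.06 with 7 of 17 above 0. Spred1, a Ras pathway inhibitor, had 146 against 203 counts (1.28 times lower, 1.03 to 1.60) and was with Dusp1 the one with an interval off 1. Spry4 stood at 0.23 and Spred3 at 0.35. Among protein kinase C genes, Prkcb had 319 counts against 271 (log2 ratio 0.35, interval above 1) and Prkd2, a protein kinase D gene, had 102 against 148. Phospholipase C and inositol genes had a median of 0.03 and calcium entry and store genes one of -0.06.

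**Figure D4:**
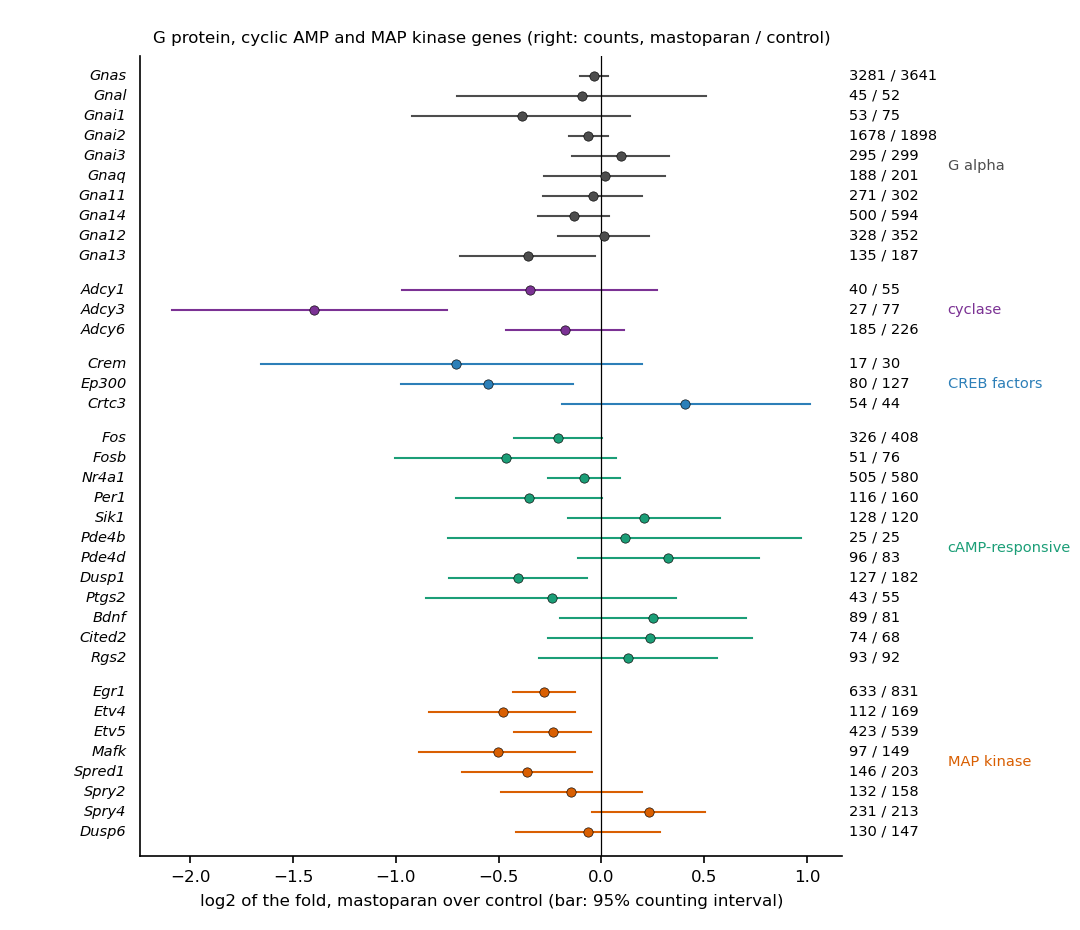
Points give the log2 of the fold of mastoparan over control without a pseudocount, bars the 95% counting interval, and the numbers the counts of both libraries. All measured G alpha, adenylyl cyclase and cyclic AMP-responsive genes are shown, with examples of CREB factors and MAP kinase-linked genes chosen after their values were seen, and Adcy3 lies farthest from 0.

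The reprogramming factors were slightly lower with mastoparan. Introduced and endogenous copies cannot be told apart in these counts. Klf4 had 4676 counts against 5861, 1641 against 1901 CPM (1.16 times lower, 1.11 to 1.20), and paraquat held 860 CPM. Pou5f1 had 2946 against 3072 CPM, Myc 1373 against 1443 and Sox2 908 against 944. The interval lay below 1 for Klf4, Pou5f1 and Myc and held 1 for Sox2, and of all genes at 500 CPM or more 6.41% had an interval below 1 and 35.9% one above. Of the 32 genes of the pluripotency network 15 were measured, 8 of them above 0 with a median of 0.04. No interval among them excluded 1, while 92.1% of all measured genes had an interval that holds 1. Nanog, the gatekeeper of the pluripotent state, had 14 counts against 21 (fold 0.72, 0.34 to 1.49), and the demethylation enzyme gene Tet2 had 104 against 126 (fold 0.89, 0.68 to 1.17). At this depth a Nanog difference of that size was not detectable.

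Over 23 measured fibroblast genes the median was 0.02. Of them 4 were at least 1.5-fold lower (17.4%, against 2.51% of all measured genes) and 1 higher (4.35%, against 2.14%). Of the 23 members, 14 are at 20 CPM or more. Snai1, which represses epithelial genes (mm10 chromosome 2, 167538195 to 167542814, plus strand), had 35 counts against 65 (1.72 times lower, 1.12 to 2.67), and Twist2, a mesenchymal bHLH factor, had 35 against 19 (1.99-fold, 1.11 to 3.69). The other lower members were the transcription factor genes Tbx18 with 20 against 37, Meox2 with 26 against 46 and Runx2 with 14 against 24, each with an interval that holds 1. Tbx18 and Runx2 lie between 5 and 10 CPM, where 12.8% of all genes were at least 1.5-fold lower. Snai1 and Meox2 lie between 10 and 20 CPM, where 4.81% were. Snai1 had 39 counts with paraquat, 30 in the Flag and 38 in the CypD library. As CPM the control was highest at 21.1, paraquat had 16.9, and mastoparan at 12.3 was near the day-4 libraries. S100a4 had 1522 against 1349 counts (log2 ratio 0.29). Vim, the mesenchymal filament gene, stood at 0.02 and Thy1 at -0.14. Of the epithelial junction and transcription genes, 16 of 28 lay above 0 with a median of 0.06. Cdh1 and Epcam had log2 ratios of -0.08 and -0.11, the tight junction gene Ocln had 28 counts against 14 (2.16-fold, 1.10 to 4.45), and the protease gene St14 200 against 266. Keratin and cornified envelope genes had a median of 0.02 over 24.

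Of 26 measured genes of the TGF-beta family 8 lay above 0, or 12 with the length trend removed, and the median was -0.04. At least 1.5-fold lower were 3 of them, all activin genes (11.5%, against 2.51% of all measured genes). These 3 lie between 5 and 10 CPM, where 12.8% of all genes were at least 1.5-fold lower. Of the 26 members, 21 are at 20 CPM or more. The activin subunit gene Inhbb had 10 counts with mastoparan, 27 in the control, 10 with paraquat, and 14 and 23 in the Flag and CypD libraries (2.50 times lower, 1.17 to 5.78). The activin receptor gene Acvr2a had 16 against 37 (2.14 times lower, 1.16 to 4.12), with 11 for paraquat and 37 and 40 at day 4. Acvr2b had 12 against 21, with an interval that holds 1. The ligand gene Tgfb3 had 102 counts against 150, an interval below 1, while Tgfb2 stood at 0.21. BMP genes had a median of 0.01 over 19, and WNT genes 0.01 over 27.

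Matrix genes had more intervals below 1 than above, against 3.38% below and 4.47% above over all measured genes. The laminin gene Lama5 had 690 counts against 933 (1.25 times lower, 1.13 to 1.38), with 604 for paraquat. Of 36 measured non-collagen matrix genes 15 lay above 0 and the interval lay below 1 for 5 and above 1 for 1. Of 20 collagens the interval lay below 1 for 3, among them Col5a1 with 449 against 568 counts, and above 1 for 1. At 100 CPM or more these are 4 below and 1 above of 14 non-collagen genes and 3 and 1 of 10 collagens, against 4.09% below and 11.2% above of all genes of that level. The median was -0.03 in both lists and -0.01 in both with the length trend removed, with median lengths of 4980 bases for collagens and 2902 for the others.

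Replication genes leaned higher as a group. Of 50 genes of replication origins, forks and nucleotide supply, all measured, 37 lay above 0 (74.0%, against 51.1% of all) with a median of 0.12, and none was past 1.5-fold. The interval lay above 1 for 7 (14.0%, against 4.47% of all) and below 1 for none. Of the 16 members at 100 CPM or more it lay above 1 for 4, against 11.2% of all genes of that level. The 7 include the polymerase delta subunit gene Pold3 with 121 counts against 99, thymidylate synthase, Tyms, with 175 against 148, the origin-binding gene Orc5 with 1634 against 1586 and the ligase gene Lig1 with 391 against 365. Against these, Gins1, a subunit of the replicative helicase, had 39 against 61 and Pcna, the sliding clamp, 679 against 775 (-0.08). The members' median length of 1985 bases was below that of all measured genes.

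Mitosis genes showed less of a lean, with 32 of 52 above 0 and a median of 0.03. The kinetochore scaffold gene Knl1 had 17 counts against 38 (2.07 times lower, 1.14 to 3.90) and the kinesin gene Kif20b 41 against 73, while the condensin gene Ncapg had 157 against 122 (1.39-fold, 1.09 to 1.78). Paraquat held 14 counts of Knl1 and the day-4 libraries 48 and 46. The G1 kinase gene Cdk4 had 560 CPM against 475. No p53 target among 26 measured was past 1.5-fold or had an interval off 1, while 92.1% of all measured genes had an interval that holds 1.

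Nucleolar genes of ribosome production leaned the same way as replication. Of 43, 33 lay above 0 (76.7%) with a median of 0.07, and the interval lay above 1 for 9 (20.9%, against 4.47% of all) and below 1 for none. Of the 19 members at 100 CPM or more it lay above 1 for 4, against 11.2% of all genes of that level. Npm1, the nucleolar chaperone nucleophosmin, had 2839 CPM against 2529 (1.12-fold, 1.09 to 1.16), with 2598 for paraquat and 3047 and 3126 CPM at day 4. The mastoparan library was thus the highest of day 8 and below day 4. Fbl, the methyltransferase fibrillarin, had 389 against 328 CPM but shares 70.8% of its windows with other genes. The rRNA processing genes Utp18 and Utp4 had 193 against 165 and 214 against 185 counts. Their lengths, with a median of 2347 bases, were near that of all genes.

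Mitochondrial genes differed by class. For respiratory complexes II to V, 32 of 40 lay above 0 with a median of 0.09, and the interval lay above 1 for 12 and below 1 for 1, Atp5g2. As 39 of the 40 are at 100 CPM or more, the share to set beside this is 11.2% above and 4.09% below of all genes of that level. The cytochrome oxidase subunit gene Cox6b1 had 399 CPM against 328 (1.22-fold, 1.12 to 1.33), the succinate dehydrogenase gene Sdhb 215 against 181. Complex I had 26 of 37 above 0 (median 0.06), and mitochondrial ribosomal proteins 52 of 75 (median 0.10), with Mrpl32 at 166 against 130 counts. These 3 lists hold short transcripts, with median lengths of 646, 682 and 938 bases. With the length trend removed, their medians were 0.03, 0.00 and 0.05, as against 0.10 for replication and 0.07 for the nucleolar genes.

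Permeability transition and mitochondrial calcium genes, which bear on the mitoflash, had a median of 0.01 over 22. The uniporter gene Mcu had 165 counts against 140 and its regulator gene Smdt1 244 against 215, with intervals above 1, as had the outer membrane channel gene Vdac3 with 430 against 362 (1.29-fold, 1.11 to 1.48). The interval lay above 1 for these 3 genes and below 1 for the hexokinase gene Hk1 (568 against 704), 13.6% and 4.55% of the list against 4.47% and 3.38% of all. Of the 13 members at 100 CPM or more it lay above 1 for 1 and below 1 for 1, against 11.2% and 4.09% of all genes of that level. The inhibitory paralogue Mcub stood at -0.41 with an interval that holds 1, and Ppif at 0.19 (fold 1.14, 0.85 to 1.54). Among fusion, fission and cristae genes 10 of 26 lay above 0 (median -0.01). The inner membrane protease gene Oma1 had 38 counts against 68 (1.65 times lower, 1.10 to 2.53), and Mfn2, which fuses outer membranes, 81 against 121 (1.38 times lower, 1.03 to 1.85). Opa1, which fuses inner membranes, ran the other way at 0.32. Paraquat held 44 counts of Oma1 and 75 of Mfn2.

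NRF2 and antioxidant genes leaned higher, with 31 of 43 above 0 (72.1%) and a median of 0.08, or 26 of 43 and 0.06 with the length trend removed. The interval lay above 1 for 9 (20.9%, against 4.47% of all) and below 1 for 2 (4.65%, against 3.38%). Of the 28 members at 100 CPM or more it lay above 1 for 7, against 11.2% of all genes of that level. Their median length was 1413 bases. The carbonyl reductase gene Cbr3 had 105 counts against 78 (1.46-fold, 1.08 to 1.98) and 111 with paraquat. In the integrated stress response, 20 of 35 lay above 0 (median 0.03), with Gdf15 at 1.19 and the CHOP gene Ddit3 at -0.46 (50 against 75 counts). Dnajb9, a chaperone of the endoplasmic reticulum, had 24 counts against 44 and the heat shock gene Hspa1b 52 against 83. Their lists did not move as these genes did. Of 24 measured chaperone genes of the endoplasmic reticulum 15 lay above 0 (median 0.03). Of 23 heat shock and mitochondrial chaperone genes 9 lay above 0 (median -0.03). In each list the interval lay above 1 for 2 genes and below 1 for 1. Proteasome subunits had 25 of 36 above 0 (median 0.07). Lgals3, a lectin that binds damaged membranes, had 397 CPM against 330 (1.20-fold, 1.10 to 1.31), with 523 CPM for paraquat and 164 and 193 at day 4. The caspase inhibitor gene Xiap had 77 counts against 55, in a list of BCL2 family and caspase genes with 17 of 27 above 0 (median 0.01). The inflammatory regulator gene Nfkbie had 24 against 11 (2.36-fold, 1.11 to 5.34). It lies between 5 and 10 CPM, where 11.2% of all genes were at least 1.5-fold higher. Of 23 measured chemokine and inflammatory genes 11 lay above 0 (median -0.03), and the interval lay above 1 for 1.

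**Figure D5:**
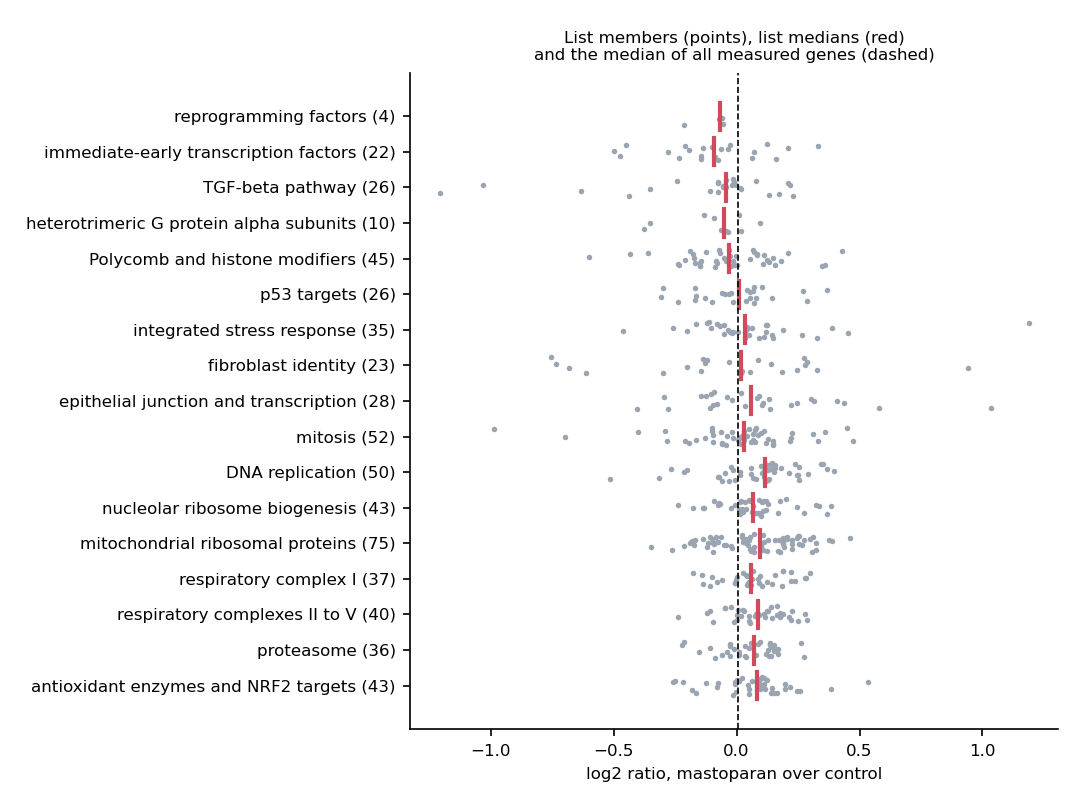
Each grey point is the log2 ratio of a measured member of a list (number of members in brackets), red bars are list medians, and the dashed line is the median of all measured genes. Replication, nucleolar and mitochondrial protein lists lie to the right of the dashed line and immediate-early genes to the left, by medians of at most 0.12.

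Many defining markers of other cell types were at or near 0 in both libraries, while some list members were well expressed. Of 22 blood and macrophage genes 16 had fewer than 3 counts in both. Of the defining ones, Tyrobp and Adgre1 had 0 in both and Ptprc had 1 count with mastoparan and 0 without. Laptm5 of the same list had 136 counts against 151. Of 20 endothelial genes 6 had fewer than 3 counts in both, and Cdh5, Emcn and Robo4 had 0 in both, while Pecam1, an adhesion molecule, had 15 counts with mastoparan and 2 in the control (8.11-fold, 1.89 to 73.1), and Flt1, a VEGF receptor, 2 against 13. Tek, Ramp2 and Eng were measured, with 157 against 170, 114 against 110 and 102 against 94 counts. Pecam1 had 4 counts with paraquat, 3 in the Flag and 8 in the CypD library. All 10 measured neural and glial genes lay above 0 with a median of 0.20 and a summed level of the list of 924 CPM against 819, and 941 with paraquat. Stmn2, a tubulin-binding protein, made up most of that sum, with 650 against 579 CPM. The radial glia gene Fabp7 had 60 counts against 43, whereas Olig1, Olig2 and Elavl3 had 0 in both and Sox10 had 3 against 2. Germ cell and 2-cell-stage markers had fewer than 3 counts in both for 17 of 20 genes.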

How the data were processed

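Reads were processed with Bowtie2 2.2.5 on mm10, per the submitters' processing notes. The sources used here do not name the counting program or annotation. The authors deposited an expected count and a TPM per gene, per the file headers. Expected counts were rounded and scaled by TMM (edgeR 4.0.16) over all 5 libraries, with factors of 1.02 for control and 1.01 for mastoparan. Intervals are exact Clopper-Pearson intervals (scipy 1.17.1). Names and coordinates come from GENCODE M21 on GRCm38 (28756 of 29267 IDs had a symbol). Shared sequence was counted in 82533 of 84205 transcripts. The code was tested on simulated data.

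The 15 highest and 15 lowest genes exclude genes sharing 20% or more of their windows, clone names, predicted genes and IDs without a name. From each list, 4 members with the widest ratios were also eligible, and 9 genes were always eligible. Other genes named, such as near copies, abundant transcripts and markers below the minimum, were chosen after their values were seen, and some eligible genes are left out. The members and the 61 lists were chosen with earlier results of these data known. With 1 library per group no test was run. Alternatives in scaling, filter, pseudocount, length trend and TPM are in the closing section.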

Additional observations from a re-analysis of the deposited data

How the results depend on the processing

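Most values moved little with the processing, but the numbers of genes past 1.5-fold follow the filter. With no filter beyond 1 count, 2329 genes were higher and 2700 lower, at a minimum of 1 CPM 849 and 908, at 20 CPM 23 and 26, and at 2-fold 42 and 53. Other scalings, TPM, the removal of the length trend and leaving out genes with shared sequence or the 20 most abundant genes kept the 4 counts within 1.5 times. The split of calls shifted: 46.1% of genes past 1.5-fold were higher, against 40.8% by library totals and 35.6% by TPM, where 211 were higher and 382 lower and the median of all genes was -0.04. By library totals the interval lay above 1 for 357 genes and below for 483. TPM gives no interval, and no library could be left out with 1 per group. No paired analysis was possible because the groups have 1 library each and their labels share no replicate numbers.

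Of 3200 values of named genes under alternatives, 3187 stayed inside the main counting interval. Cebpg, a stress response factor, reversed from 0.45 to -0.11 by TPM, and Col5a1 and Klf4 moved to -0.61 and -0.43, and Malat1 to -0.28. S100a6 moved to 0.18 with the length trend removed and to 0.20 by TPM, both below its main counting interval. The cause was not tested. The complex I median went from 0.06 to -0.0004976 with the length trend removed, and to 0.01 by TPM. Replication and nucleolar genes stood at 0.06 and 0.02 by TPM, where the median of all genes was -0.04. Depth limits genes under 20 CPM most.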
